A study of Mus musculus with 6 samples.

Results

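The genes described here encode the colony-stimulating factors and their receptors. They were taken as the probes whose platform gene symbol is Csf1, Csf2, Csf3, Csf1r, Csf2ra, Csf2rb or Csf3r, which gave 7 of the 10698 genes that probes with 1 symbol name, by 9 of 16281 probes. Csf3 and Csf2ra had 2 probes each and the other genes 1 each. The cells were RAW 264.7, an established mouse macrophage-like line that arose from a tumour induced by a leukaemia virus, so the results describe 1 transformed line and not macrophages of an animal. Treated cells had been given LPS (lipopolysaccharide, 100 ng/ml) and LBP (LPS-binding protein, 100 pM) and were cultured for 48 h, as were untreated cells with neither agent. LPS is an outer membrane component that Gram-negative species share, and LBP, found in serum, passes it on to cell surface receptors. Each of 6 two-colour arrays set treated against untreated RNA, with treated RNA in Cy5 on 3 arrays and in Cy3 on the other 3, numbered as sets 1 to 3 within an orientation. Whether a set was a culture of its own is not stated in the labels, and the p-values cover only the spread between sets, which may be technical.

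Colony-stimulating factors are secreted proteins that control the survival, growth and maturation of myeloid cells. CSF1 (M-CSF) acts on macrophages and their precursors through the receptor tyrosine kinase CSF1R. CSF3 (G-CSF) acts mainly on the neutrophil lineage through CSF3R. CSF2 (GM-CSF) acts through a ligand-specific alpha chain, CSF2RA, together with the beta chain CSF2RB, which the IL-3 and IL-5 receptors also use. Macrophages are themselves known sources of all 3 factors when stimulated by bacterial products.

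Ratios are given as log2 of treated over untreated cells, with base 2 assumed because the sources used here do not state it. A mean is that of the 3 set means, each set mean being the average of its 2 dye orientations, and its error is their SD. Ratios listed as exactly 0 were taken as missing. The test was limma across all 14524 probes with at least 2 complete sets, with Benjamini-Hochberg adjustment over those probes, and an adjusted p under 0.05 counted as a call. Of all probes tested, 24.5% were called, 13.5% higher and 11.0% lower in treated cells. Deposited ratios correlated at -0.78 to -0.56 between arrays of opposite orientation and at 0.74 to 0.81 between arrays of the same one, over the 12724 probes with a value on every array. The arrays give ratios and no levels, so the presence of a transcript in untreated cells was not measured, and a change in RNA per cell cannot be told apart from a change in the mix of cells. Of 8 tested probes of other macrophage markers, 3 rose (Adgre1, Fcgr1 and Msr1) and 0 fell, and of 31 tested probes of markers of granulocytes, T cells, B cells, fibroblasts and dendritic cells, 3 rose (Cd79a, Dcn and Batf3) and 2 fell (S100a8 and Cd8a). Whether the mix of cells plays a part in the results below was not tested.

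After 48 h, Csf3 was the member with the largest change, Csf3r and Csf1 rose moderately, and Csf1r fell. Of the 8 member probes that could be tested, 3 were called higher, against 13.5% of all probes, and 1 was called lower, against 11.0%. The other 4 probes, of Csf2, Csf2ra and Csf2rb, did not pass. The median ratio of the 8 probes was 0.28, against -0.02 over all probes tested. On all 6 arrays 4 member probes were higher and 1 was lower in treated cells, and among the 12724 probes with 6 values these shares were 16.1% and 14.1%.

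**Figure D1:**
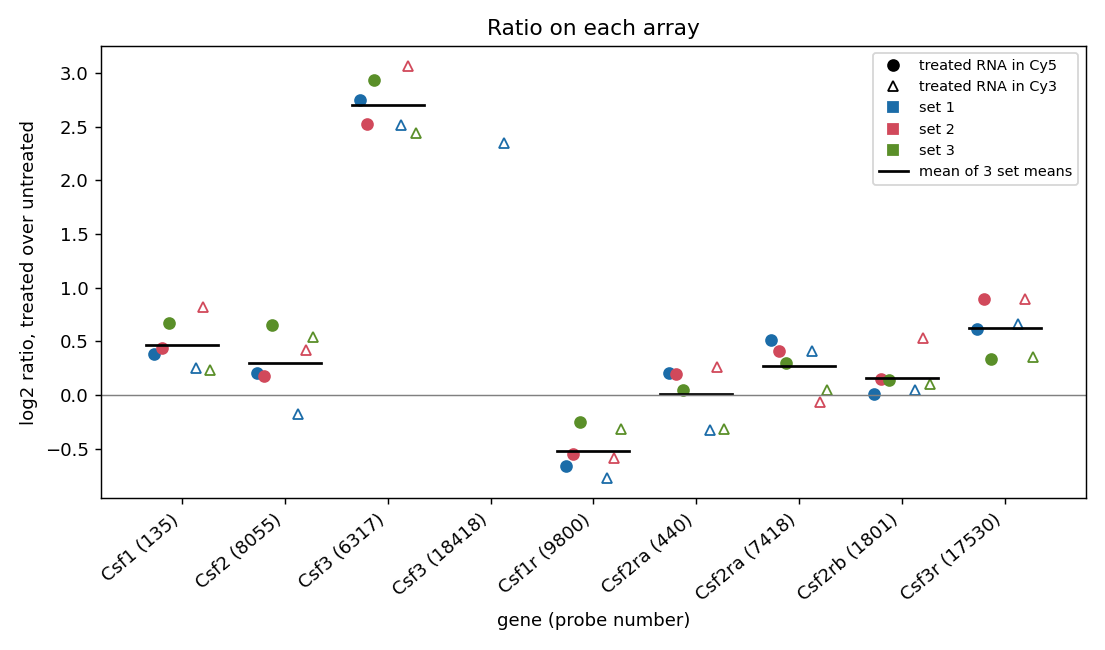
Log2 ratio of treated over untreated cells on each array (y axis) for the 9 member probes (x axis, gene and probe number). Filled circles are arrays with treated RNA in Cy5, open triangles those with treated RNA in Cy3, colours are the sets and black lines the mean of the 3 set means. The 6 points of Csf3 probe 6317 lie between 2.44 and 3.06, far above those of every other member probe with 6 values, and the 6 points of Csf1r lie below 0.

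Csf3 encodes G-CSF, the main growth factor of neutrophils. Its probe 6317 gave ratios of 2.75, 2.52 and 2.94 with treated RNA in Cy5 and of 2.51, 3.06 and 2.44 with treated RNA in Cy3 (sets 1, 2 and 3). All arrays were high, and the lowest of them stood above the highest array of any other member gene. Csf3 rose by 2.70 ± 0.08 (SD, n = 3 sets), which is 6.51-fold with a 95% interval of 5.66 to 7.49 (limma, adjusted p = 8.07e-09). The probe ranked 62 of 14524 from the highest mean ratio. The second probe of Csf3, 18418, has the same accession. It had exact zeros on 5 arrays, and the Cy3-labelled treated RNA of set 1 gave 2.35. It was not tested, so the rise of Csf3 rests on 1 probe.

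Csf1 encodes M-CSF, the factor that keeps macrophages alive in most tissues. Its ratios were 0.38, 0.43 and 0.67 with Cy5-labelled treated RNA and 0.25, 0.82 and 0.23 with treated RNA in Cy3. All 6 arrays were higher in treated cells, and the highest belonged to set 2. Csf1 rose by 0.47 ± 0.15 (1.38-fold, 95% interval 1.19 to 1.60, limma adjusted p = 0.00514). Without set 2 the ratio was 0.39 and the call was lost (limma, adjusted p = 0.0551), as it was without the single array with treated RNA in Cy3 of that set (adjusted p = 0.0526). With ratios of 0 kept as values, a setting that called 8.64% of all probes, the ratio of Csf1 stayed the same, since it had no zeros, and the adjusted p was 0.0749.

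The 250 bases before the annotated start of Csf1 are shown because the gene rose and because its window held the letters of a kappaB motif, the kind of site that NF-kB binds. The sequence is from RefSeq (GRCm38.p6), chr3:107760470-107760719, minus strand, written 5′ to 3′, and the capitals mark the matches.
Csf1: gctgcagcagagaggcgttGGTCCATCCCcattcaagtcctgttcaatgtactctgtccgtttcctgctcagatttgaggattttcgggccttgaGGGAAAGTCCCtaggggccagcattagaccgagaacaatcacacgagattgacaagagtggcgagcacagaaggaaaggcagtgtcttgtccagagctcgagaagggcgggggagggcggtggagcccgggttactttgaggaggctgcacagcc
Both strands were searched for a strict kappaB form, in which 3 G and any 2 bases precede TTTCC, and for a loose form, in which GGGA and any 4 bases precede a pair of C, and the forms can overlap. The strict form had 1 match, on the opposite strand at 154 to 145 bases before the start. The loose form had 3 matches, at 231 to 222, 155 to 146 and 154 to 145, of which the last covers the same bases as the strict match. Among 32851 RefSeq windows of the same length, 1.41% held the strict form and 17.6% the loose one. A match of letters is a description and shows no binding. Searches on both strands for the CK-1 motif GAGATTCC (in 0.755% of windows), the AP-1 motif TGANTCA (6.75%), the PU.1 motif GAGGAA (23.3%) and the C/EBP motif TTNNGNAA (36.8%) gave 0 matches in this window. The cyclic AMP response motif TGACGTCA (1.55%), the TATA box motif TATAAA (12.4%) and the interferon response motif ISRE (2.98%) also gave 0.

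Csf2 encodes GM-CSF, which acts on granulocytes, macrophages and dendritic cells. Its single probe gave ratios of 0.21, 0.18 and 0.65 with treated RNA in Cy5, and of -0.18, 0.41 and 0.54 with treated RNA in Cy3. The arrays of set 3 were high, those of set 1 lay on either side of 0, and 5 of 6 were above 0. The mean of 0.30 ± 0.29 did not pass (limma, adjusted p = 0.0841), and its 95% interval ran from 1.03-fold to 1.47-fold. Without set 1 the ratio was 0.45 and passed (adjusted p = 0.0216), and without set 3 it was 0.16 (adjusted p = 0.461). The set means were 0.01, 0.30 and 0.59, so the spread between sets was about as large as the mean itself.

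Among the receptors, Csf3r rose. It encodes the receptor for G-CSF, known mostly from neutrophils and their precursors and also present on monocytes. Its ratios were 0.62, 0.90 and 0.33 with Cy5-labelled treated RNA and 0.66, 0.90 and 0.36 with treated RNA in Cy3. Set 2 was highest and set 3 lowest in both orientations, and the orientations of a set differed by at most 0.05 while the set means spanned 0.55. The mean was 0.63 ± 0.28 (1.54-fold, 95% interval 1.30 to 1.84, limma adjusted p = 0.00217), at rank 822 of 14524 from the highest. The call held without each set in turn, with an adjusted p of 0.0387 without set 2. With ratios of 0 kept as values the ratio was the same and the adjusted p was 0.105.

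The window of Csf3r is shown because this receptor gene rose, as did its ligand. It comes from RefSeq (GRCm38.p6), chr4:126024409-126024658, plus strand, 5′ to 3′, and ends before a start site that lies 1218 bases inside the outermost start RefSeq gives for the gene. The capitals mark, in this order, a kappaB match and a match of PU.1, a transcription factor of myeloid cells.
Csf3r: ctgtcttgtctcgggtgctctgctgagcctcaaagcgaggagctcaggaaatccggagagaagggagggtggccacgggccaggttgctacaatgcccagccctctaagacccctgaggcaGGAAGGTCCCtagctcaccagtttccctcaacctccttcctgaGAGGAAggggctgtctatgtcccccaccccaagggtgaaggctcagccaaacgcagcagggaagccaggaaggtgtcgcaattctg
The loose kappaB form matched once, on the opposite strand at 129 to 120 bases before that inner start site, and GAGGAA matched once at 86 to 81. The other motifs searched had 0 matches here. Windows were searched for 4 of the 7 members, and Csf3, the member with the largest ratio, was not among them. The window of Csf2 ends at the outermost start RefSeq gives for the gene, and the bases before any inner start were not searched. In this window the C/EBP motif matched once, at 145 to 138, and the other motifs had 0 matches. The window of Csf2ra held 2 matches of GAGGAA, 1 of the C/EBP motif and 1 of TGACGTCA, and 0 of the others. With so few windows, no relation between these letters and the ratios can be read.

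Csf1r encodes the receptor for CSF1 and IL-34 and is 1 of the markers of macrophages. Its ratios were -0.66, -0.55 and -0.25 with Cy5-labelled treated RNA and -0.77, -0.59 and -0.32 with treated RNA in Cy3. All 6 arrays were lower in treated cells, with set 1 lowest and set 3 nearest to 0 in both orientations. Csf1r fell by 0.53 ± 0.22 on the log2 scale, to 0.695 of the untreated level with a 95% interval of 0.592 to 0.816 (limma, adjusted p = 0.00393). It ranked 485 of 14524 from the lowest mean ratio. The call was lost without set 2 (limma, adjusted p = 0.0528), with a ratio of -0.50, and with ratios of 0 kept as values (adjusted p = 0.0977), where its ratio was the same. A probe annotated to the pseudogene Csf1r-ps went the other way, at 0.21 ± 0.07, and did not pass (limma, adjusted p = 0.128).

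The subunits of the GM-CSF receptor did not pass. Csf2ra, the ligand-specific alpha chain, had a pair of probes with the same accession that gave different ratios. Probe 7418 gave ratios of 0.52, 0.41 and 0.29 with treated RNA in Cy5, and of 0.41, -0.06 and 0.05 with treated RNA in Cy3, with a mean of 0.27 ± 0.17 (limma, adjusted p = 0.0736). Probe 440 gave ratios of 0.20, 0.20 and 0.04 with treated RNA in Cy5, and of -0.33, 0.26 and -0.31 with treated RNA in Cy3, with a mean of 0.01 ± 0.19 (adjusted p = 0.963). The first was above 0 on 5 arrays and the second on 4, and the arrays of the probes overlapped. The interval of probe 440 ran from 0.862-fold to 1.18-fold and that of probe 7418 from 1.04-fold to 1.40-fold, so neither held a doubling or a halving. In a fit of the 6 arrays without the set, probe 7418 passed (adjusted p = 0.0377).

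Csf2rb encodes the beta chain shared by the GM-CSF, IL-3 and IL-5 receptors. Its probe gave ratios of 0.01, 0.14 and 0.14 with treated RNA in Cy5, and of 0.04, 0.53 and 0.10 with treated RNA in Cy3. All 6 arrays were above 0, 5 of them by little and the array with treated RNA in Cy3 of set 2 by more. The mean was 0.16 ± 0.16 (limma, adjusted p = 0.275), with a 95% interval of 0.963-fold to 1.30-fold. Mice carry a second, closely similar gene, Csf2rb2, whose product serves the IL-3 receptor, and cross-hybridisation between them was not tested. Its probes gave 0.34 ± 0.10 (limma, adjusted p = 0.0194) and 0.29 ± 0.21 (adjusted p = 0.0684). Both Csf2rb2 probes were higher in treated cells with treated RNA in Cy3, at means of 0.71 and 0.78, and stood at -0.02 and -0.20 with treated RNA in Cy5.

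**Figure D2:**
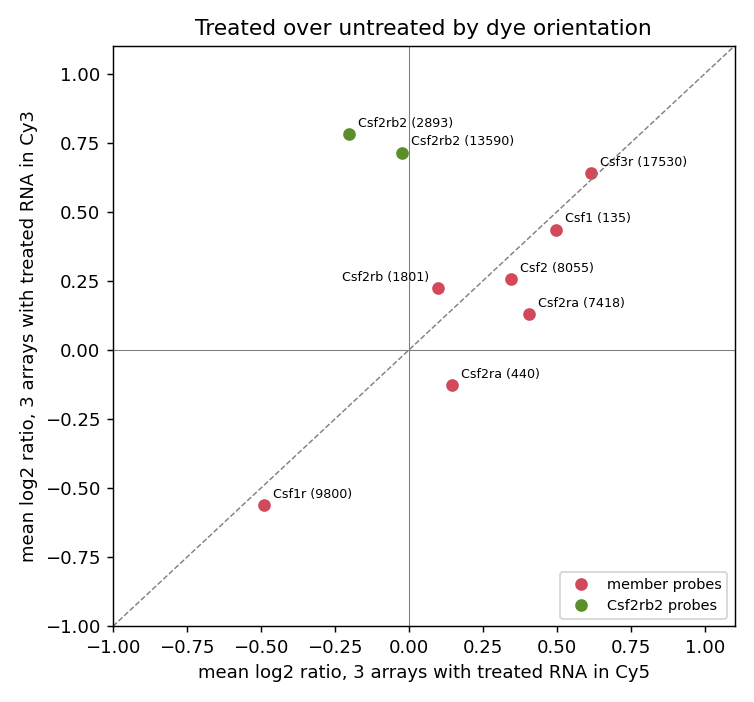
Mean log2 ratio of treated over untreated cells on the 3 arrays with treated RNA in Cy5 (x axis) and on the 3 arrays with treated RNA in Cy3 (y axis), for member probes (red) and the Csf2rb2 probes (green). The dashed line marks equal ratios, and Csf3, at 2.74 and 2.67, lies outside the axes. Csf3r, Csf1 and Csf1r lie near the line, and the Csf2rb2 probes lie far above it.

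Dye orientation was compared probe by probe with the same fit on ratios of Cy5 over Cy3. Over all 14524 probes 0.262% had a dye effect past the threshold, and 0 of 8 member probes did (limma, adjusted p = 0.226 to 0.898), with 0 of 8 at an unadjusted p under 0.05. The Csf2rb2 probes, with dye effects of -0.49 and -0.37, did not pass either (limma, adjusted p = 0.119 for each). The low share of calls therefore does not show that dye effects were small. The means of the orientations were 0.62 and 0.64 for Csf3r, 0.50 and 0.44 for Csf1, and -0.49 and -0.56 for Csf1r (Cy5 and Cy3). The sign differed between orientations for probe 440 of Csf2ra, at 0.15 and -0.13. Probe 7418 of Csf2ra stood at 0.41 and 0.13, with the lowest dye p-value of the members (limma, unadjusted p = 0.0699). In the plot by orientation Csf3r, Csf1 and Csf1r lie close to the line of equal ratios.

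By size of ratio the members ran from Csf3 through Csf3r, Csf1, Csf2, Csf2ra probe 7418, Csf2rb and Csf2ra probe 440 to Csf1r. The 95% interval of Csf3, 2.50 to 2.90, overlapped that of no other probe. The intervals of Csf3r (0.38 to 0.88) and Csf1 (0.25 to 0.68) overlapped, as did those of Csf1 and Csf2 (0.05 to 0.56), so these neighbours were not set apart. The interval of Csf1r, -0.76 to -0.29, lay below those of all other member probes. The plot of mean ratios shows this order with its intervals.

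**Figure D3:**
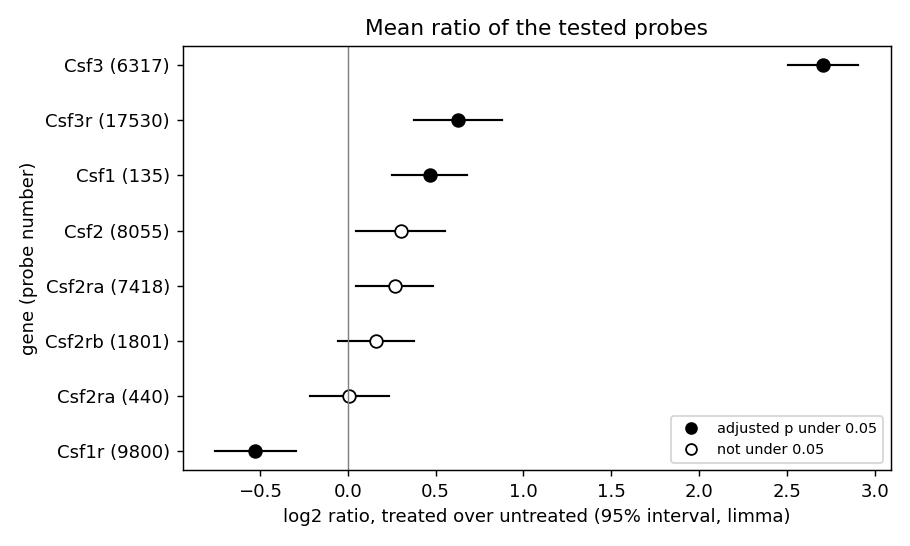
Mean log2 ratio of treated over untreated cells (x axis) for the 8 tested member probes (y axis), with 95% intervals from limma as bars. Filled points passed at an adjusted p under 0.05. Csf3 stands alone at 2.70, Csf3r and Csf1 lie between 0.4 and 0.7, and Csf1r lies below 0.

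Set against the whole array, 5% of probes had a mean ratio above 0.70 and 5% one below -0.44. Csf3 lay far into the upper tail and Csf1r past the lower of these marks, while Csf3r and Csf1 lay inside them. The plot of all probes shows the same positions. By root mean square difference over the 6 arrays, the nearest other probes to Csf3 were those of Stfa3 (0.19), Ifit2 (0.23) and Gm8989 (0.28). The nearest to Csf1 were Bcl6b (0.11), Car5a (0.12) and Maff (0.12), to Csf3r Atxn7l1 (0.07), Smtn (0.09) and Mcl1 (0.10), and to Csf1r Kti12 (0.06), Pole2 (0.07) and Ncbp2 (0.07).

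**Figure D4:**
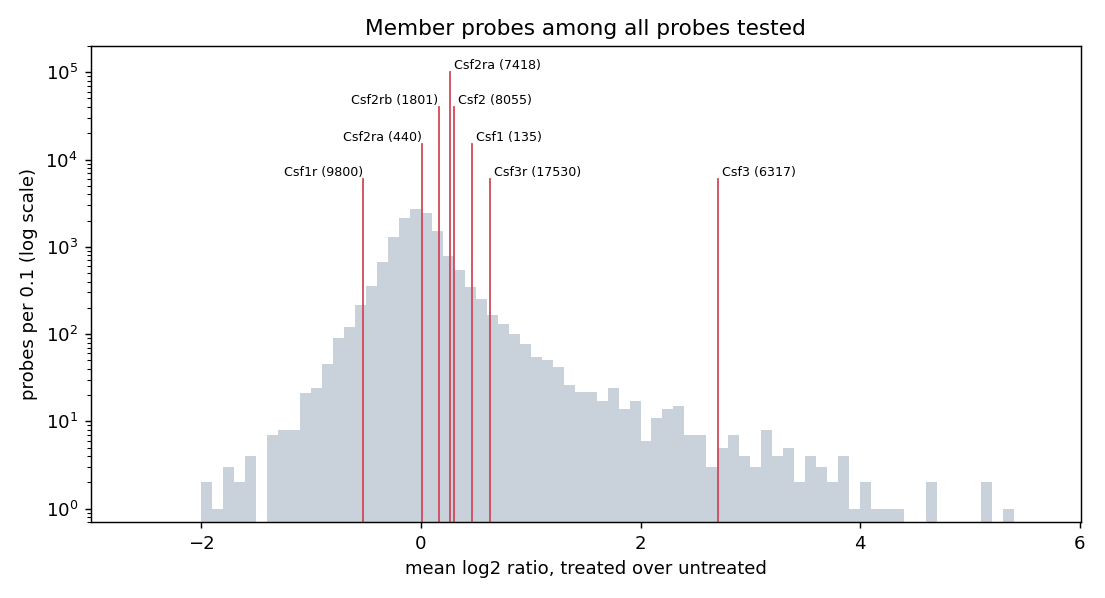
Number of probes (y axis, log scale) by mean log2 ratio of treated over untreated cells (x axis, steps of 0.1) for the 14524 probes tested. Red lines mark the 8 tested member probes. Csf3 lies in the upper tail at 2.70, and the other members lie between -0.53 and 0.63.

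Cytokines and receptors related to the members were measured for all 10 genes of a list of Il34, Il3, Il5, Kitl, Flt3l and their receptors. Of 15 tested probes 4 rose and 0 fell, against 13.5% and 11.0% of all probes tested. The median was 0.02. Flt3l, the growth factor of dendritic cell precursors, rose on both probes, by 0.58 ± 0.07 (limma, adjusted p = 9.17e-04) and 0.51 ± 0.12. Kitl, the ligand of the receptor Kit, rose by 0.57 ± 0.08, and the fourth was the Csf2rb2 probe above. Il34, the other ligand of CSF1R, stood at 0.32 ± 0.25 and did not pass (adjusted p = 0.0564). Il3 and Il5, whose receptors share the beta chain, did not pass on any of their 4 probes, at -0.21 to 0.02.

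Between them the receptors signal through Janus kinases, STAT factors, the Ras pathway and PI3 kinase, and CSF1R is itself a tyrosine kinase. Of 40 tested probes of 25 genes of these pathways, 11 rose and 2 fell, against 13.5% and 11.0% of all probes. The median was 0.11. Jak2, a kinase of the beta chain and of CSF3R, rose on both probes, by 1.27 ± 0.14 (limma, adjusted p = 3.84e-06) and 1.24 ± 0.16. Stat3, the main STAT of the G-CSF receptor, rose by 0.84 ± 0.20 and 0.75 ± 0.09. Stat5a and Stat5b, the STATs of the GM-CSF receptor, stood at 0.14 ± 0.12 and -0.04 ± 0.14 and did not pass. The adaptor Shc1 fell by 0.43 ± 0.29 (adjusted p = 0.0195) and the PI3 kinase subunit Pik3cd by 0.37 ± 0.23 (adjusted p = 0.0276).

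Of the negative regulators, 5 of 25 tested probes were higher and 3 lower, with a median of -0.06. Over all probes tested 13.5% were higher and 11.0% lower, so these shares lie near the background. Socs1, an inhibitor of Janus kinases, rose on both probes, by 1.02 ± 0.23 (limma, adjusted p = 4.69e-05) and 0.71 ± 0.11. Cish, a STAT5 target that dampens the GM-CSF receptor's signal, rose by 0.54 ± 0.21 on 1 probe and stood at 0.21 ± 0.14 on the other. Adam17, the protease that sheds CSF1R from the surface, rose by 0.39 ± 0.22 on 1 probe (adjusted p = 0.0191) and stood at 0.27 ± 0.19 on the other. Inpp5d, the inositol phosphatase SHIP, fell on both probes, by 0.57 ± 0.13 (adjusted p = 0.00126) and 0.51 ± 0.11. Socs3, the inhibitor of G-CSF receptor signalling, stood at -0.22 ± 0.25 and did not pass.

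Of 23 tested probes of myeloid transcription factors, 8 rose and 4 fell, against 13.5% and 11.0% of all probes. The median was 0.03. The highest were Egr1, an immediate early factor, by 2.00 ± 0.62 (limma, adjusted p = 1.55e-05), and Fos, by 1.42 ± 0.18 on 1 probe and 0.40 ± 0.06 on the other. The lowest were the Ets factor Fli1, which fell by 0.79 ± 0.05 (adjusted p = 9.12e-05), and Runx1, which fell by 0.35 ± 0.06 (adjusted p = 0.0157) with 5 of 6 arrays lower. Spi1, which encodes PU.1, the factor that drives Csf1r and Csf3r in myeloid cells, stood at 0.03 ± 0.06 (adjusted p = 0.845). Cebpa, which also controls Csf3r, stood at 0.09 ± 0.22 and did not pass. Of the other C/EBP genes tested, Cebpd rose by 1.09 ± 0.30 (limma, adjusted p = 5.65e-05). Cebpb rose by 0.33 ± 0.17 on 1 probe (limma, adjusted p = 0.0324) and stood at 0.26 ± 0.11 on the other, which did not pass.

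Regulators of transcription and decay of the factors' mRNAs had 11 of 22 tested probes higher and 3 lower, with a median of 0.22. Over all probes these shares were 13.5% and 11.0%. Zfp36 (tristetraprolin), a protein that binds AU-rich elements and speeds the decay of Csf2 mRNA, rose by 2.14 ± 0.26 (limma, adjusted p = 1.96e-07). The AP-1 subunit Fosl1 rose by 0.87 ± 0.11, and Rela and both probes of Rel, NF-kB subunits, did not pass at -0.06, 0.10 and -0.07. The list also holds the NF-kB subunit genes Nfkb1, Nfkb2 and Relb, which are not described here. Nfatc1 fell on both probes, by 0.79 ± 0.17 and 0.42 ± 0.12.

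Genes known to be induced through these receptors had 21 of 34 tested probes higher and 0 lower, with a median of 0.45. Over all probes these shares were 13.5% and 11.0%. Many of these genes are also induced by LPS directly, and the arrays do not separate the routes. The highest probes were those of the chemokine Ccl2, at 4.28 ± 0.24 (limma, adjusted p = 1.75e-09) and 3.55 ± 0.08. The lowest that passed were Ccnd1, the cyclin of the early cell cycle, at 0.35 ± 0.28 (adjusted p = 0.0432), with its second probe, with 1 array missing and 2 sets in the fit, at -0.12 ± 0.27, and 1 of 3 probes of the protease gene Plau, at 0.35 ± 0.19. Pim1, a kinase gene switched on by STAT5, rose on both probes, by 0.79 ± 0.15 and, with 1 array missing and 2 sets in the fit, by 0.69 ± 0.06. Il6, Il1b, Nos2 and Tnf are textbook targets of LPS, and their rise is part of the basis for the direction of the ratio. All 9 of their probes rose, by 0.88 to 3.81, which for this reason is no independent result. Csf3 probe 6317 at 2.70 stood between the probes of Nos2 and Tnf (0.88 to 1.19) and those of Il1b and Il6 (3.36 to 3.81).

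**Figure D5:**
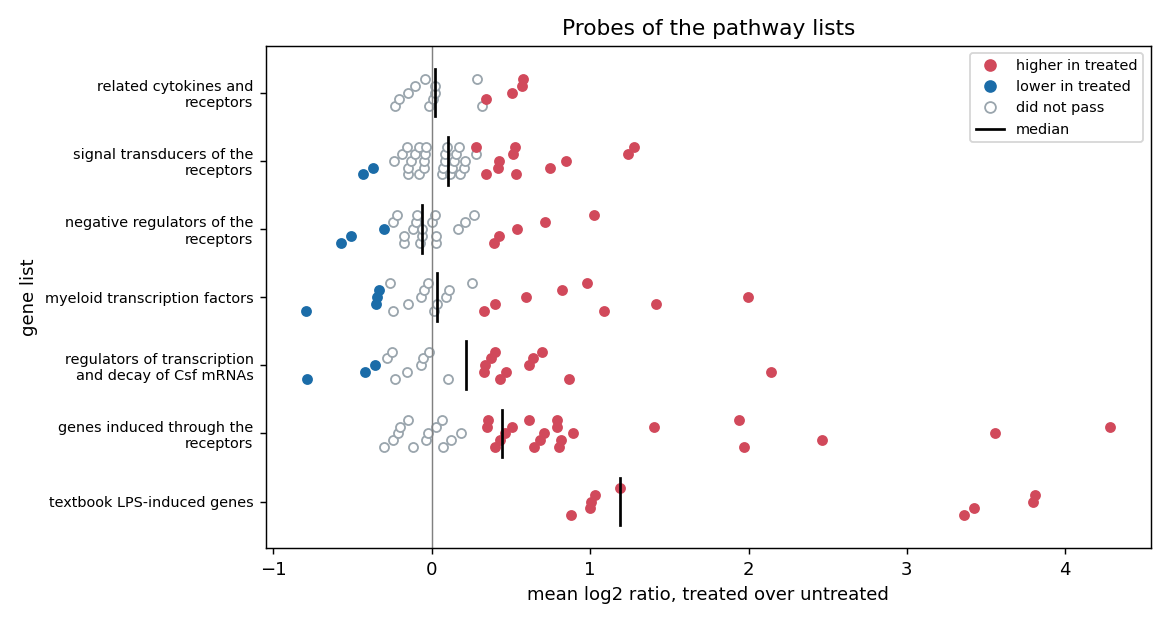
Mean log2 ratio of treated over untreated cells (x axis) for each tested probe of the 7 pathway lists (y axis). Red points were higher and blue points lower in treated cells at an adjusted p under 0.05, open grey points did not pass, and black lines are the medians. The median lay between -0.06 and 0.45 in the first 6 lists and at 1.19 in the last list, of textbook LPS targets.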

How the data were processed

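The authors deposited 1 log2 ratio (Cy5 over Cy3, base taken as 2) per probe and array, with a median of 0 on each array. Dye normalization, background correction and the scanner were not given in the sources used here. Per the labels, Cy5 RNA is the test and Cy3 RNA the control, so the sign was turned on the 3 arrays with treated RNA in Cy3. The rise of textbook LPS targets was a further part of the basis for this direction. Between 7.97% and 17.8% of an array's values were exactly 0. These were set to missing.

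Probes were named through the platform annotation, where 13738 of 16281 had 1 symbol. A RefSeq table held 13694 of these by gene ID and changed 0 symbols. The orientations of a set were averaged, both being needed, and limma 3.58.1 tested whether their mean differs from 0 (R 4.3.3, lmFit and eBayes, two-sided). Depth does not apply to arrays, and precision is limited by their number. The procedure was tested on simulated ratios of probes with a value on every array. These ratios were drawn independently for each array, so set and dye effects were not covered. All per-sample columns were mapped.

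The members, pathway lists, motifs and tests were chosen with earlier results of these data known. The text names all member probes, the 2 highest and 2 lowest called probes of each list, the 3 nearest probes of each called member, and further list genes picked for their role beside the members after their values were seen. The 16 alternatives covered kept zeros, complete probes only, the set as no block or a random block, centring, averaging of probes, robust eBayes, and leaving out each set or array.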

Additional observations from a re-analysis of the deposited data

Results flagged for a closer look

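Csf2rb had 1 array far from the other 5. The array with treated RNA in Cy3 of set 2 read 0.53, and its gap to the next array made up 0.745 of the range of the 6 arrays, which is over the 95% critical value of Dixon's test. The other 5 arrays lay between 0.01 and 0.14. Without set 2 the mean of Csf2rb was 0.07, against 0.16 with all sets, and it passed in neither case (limma, adjusted p = 0.663 and 0.275). Of 8 member probes checked, 1 was marked in this way, and chance marks about 1 in 20.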

How the results depend on the processing

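Under the 16 alternatives no member probe that passed reversed, and Csf3 passed in all of them, at 2.61 to 2.79. With ratios of 0 kept as values, limma called 903 probes higher and 504 lower in place of 1965 and 1595, and 1 member probe (Csf3) higher and 0 lower in place of 3 and 1. The 4 called members had no zeros and kept their ratios there, so their adjusted p-values moved through the variance estimates and the adjustment over all probes. Without set 2 no member passed as lower (0, against 1 without set 1 or set 3, and 1 without any single array). Leaving out sets or arrays gave 1127 to 1698 probes higher and 723 to 1219 lower, and the array with treated RNA in Cy3 of set 2 gave the lowest counts. Fewer sets or unbalanced dyes also leave fewer degrees of freedom or an uncancelled dye effect. Without the replicate block, in a fit of 6 arrays with a dye term, 2246 probes rose, 1987 fell, and 4 member probes rose, Csf2ra probe 7418 being the fourth. Same-numbered arrays of opposite orientation deviated together at r = 0.53, 0.08 and 0.17 in sets 1, 2 and 3 (Pearson correlation of deviations from the mean of the orientation). The link by number was thus clear in set 1 and weak in sets 2 and 3. With the set as a random block, the consensus correlation of deposited ratios within a set was -0.32, where ratios of opposite orientation carry opposite signs. The array with treated RNA in Cy3 of set 2 deviated more with an array of another number than with its own. Each of the other arrays deviated most with the array of its own number, among those of opposite orientation. With probes of a symbol averaged, 1349 genes rose and 1106 fell. Of 224 counts of the pathway lists under the alternatives, 189 stayed within 1.5 times the reported count, 32 were lower and 3 higher. Precision is limited by 3 sets, and intensities, and so signal over background, were not used here.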
